A study of Mus musculus with 6 samples.

Results

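The growing hair follicle (HF) adds new layers around and inside its hair, and each layer makes its own keratins. The levels and cells of 10 such keratin genes were followed over the first 6 days after depilation of mouse dorsal skin. Krt25, Krt27, Krt28, Krt71, Krt72 and Krt73 are keratins of the inner root sheath (IRS), Krt75 is known from the companion layer, and Krt35, Krt85 and Krt32 are hair shaft keratins. The genes were found by their symbols, and 9 of the 10 symbols matched a row each among the 32285 genes of the count matrices. Krt85 is not analysed here.

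All mice were wildtype FVB males labelled p55-57 whose dorsal skin had been shaved and waxed, and their cells were taken at 0, 4 or 16 h or at 2, 4 or 6 d post depilation. Each time point was 1 library of 2 mice, processed apart and mixed at equal cell numbers. The 2 mice could not be separated in the data, so time points were compared without a test. Levels are counts of unique molecular identifiers (UMIs, 1 per captured RNA molecule) per 1000000 UMIs of the library (CPM), counted near the 3′ end of the RNA and therefore not scaled by gene length. Their 95% intervals are exact Poisson intervals, and those of shares of cells are Clopper-Pearson intervals; both cover counting error only. After filtering, 50502 of 61031 barcodes were kept, 6520 to 11032 in a library, with 65877606 to 95672793 UMIs and a median of 6036 to 10531 UMIs per cell. In each library, 85 to 126 kept barcodes also occurred in another library.

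Keratin filaments are built from pairs of an acidic type I and a basic type II protein, and every keratin-making cell needs both kinds. Resting (telogen) follicles make no IRS. When a follicle re-enters growth (anagen), dividing matrix cells around the dermal papilla give rise to the IRS, which stiffens and guides the hair, and to the hair shaft within it. The companion layer lies between the IRS and the outer root sheath.

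The 9 genes lie in the keratin clusters of the mouse genome (GRCm38, the mm10 build of the files), all on the minus strand and all protein coding. The type I genes Krt25, Krt27, Krt28, Krt32 and Krt35 lie within chr11:99315516-100096241, and the type II genes Krt75, Krt71, Krt72 and Krt73 within chr15:101563345-101802346. RefSeq promoter entries (GRCm38.p6) were matched for 8 of the 9, and their start sites can differ from the gene ends of the annotation. The last 80 bases before the start site are shown for 5 IRS keratins whose levels moved together and for Krt75 and Krt32, which had other patterns. They are written 5′ to 3′ on the gene's strand, with the letters TATAAA, the core of a TATA box, in capitals.
Krt25, chr11:99322952-99323031: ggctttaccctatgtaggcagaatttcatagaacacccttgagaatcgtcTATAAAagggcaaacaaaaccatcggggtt
Krt27, chr11:99351119-99351198: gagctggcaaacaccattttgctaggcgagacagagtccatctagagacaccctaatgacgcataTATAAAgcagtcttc
Krt28, chr11:99374904-99374983: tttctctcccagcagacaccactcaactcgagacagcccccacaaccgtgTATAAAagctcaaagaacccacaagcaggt
Krt71, chr15:101743098-101743177: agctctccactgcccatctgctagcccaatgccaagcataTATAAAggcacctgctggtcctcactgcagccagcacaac
Krt73, chr15:101802361-101802440: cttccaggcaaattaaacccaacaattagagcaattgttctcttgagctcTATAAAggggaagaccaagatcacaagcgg
Krt75, chr15:101573905-101573984: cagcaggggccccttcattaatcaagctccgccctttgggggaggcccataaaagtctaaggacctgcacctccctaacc
Krt32, chr11:100088270-100088349: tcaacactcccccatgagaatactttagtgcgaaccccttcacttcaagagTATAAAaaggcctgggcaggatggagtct

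Within 250 bases before the start, TATAAA occurred on either strand in 7 of the 8 keratin promoters, against 12.4% of all 32851 promoter entries. On the gene's own strand, its first base was 30 bases before the start in Krt25, Krt28 and Krt73, 40 in Krt71, 15 in Krt27, and 29 and 88 in Krt32. The Krt72 match was on the other strand, 203 bases before the start. AGATAA, which holds the core letters bound by GATA factors, occurred in the promoters of Krt25, Krt27, Krt71 and Krt73, against 9.99% of all entries. CTTTGA, the core bound by LEF/TCF factors, occurred in those of Krt28 and Krt32, against 13.8%. No match overlapped another, and these matches describe letters in the window only.

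The keratins of the IRS were close to 0 in the first 4 libraries and high at 4 d and 6 d. Summed over the 6 IRS keratins, the level was 1.20, 1.49, 1.61 and 2.15 CPM in the libraries of 0 h to 2 d, and 300.5 CPM (95% interval 296.7 to 304.5) and 101 CPM (98.7 to 103) in those of 4 d and 6 d. These sums rested on 22936 UMIs at 4 d and on 169 at 2 d. In such library sums, fewer cells with a gene and less of its RNA per cell cannot be told apart.

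Krt25, a type I keratin of the IRS, was at 0.150, 0.243, 0.324, 0.166, 79.8 and 29.8 CPM in time order, from 0 h to 6 d. Krt28, also of type I, was at 0.0901, 0.380, 0.240, 0.612, 97.9 and 17.2 CPM in the same order. Krt71, a type II keratin in which mutations give curly coats, was at 0.480, 0.106, 0.0627, 0.268, 64.0 and 26.9 CPM. For these 3 genes the intervals of the 4 d and 6 d libraries lay far above those of every earlier library, and the 6 d value lay below the 4 d value. Type I Krt27, the highest of the 6 from 4 h to 2 d, was at 0.375, 0.744, 0.920, 0.943, 26.9 and 14.8 CPM. Type II Krt73 was at 0.0150 CPM at 0 h, and at 0.0523, 0.166, 31.9 and 12.0 CPM from 16 h on. It had 0 UMIs at 4 h, where 3 UMIs would be 0.0455 CPM. Type II Krt72 stayed low throughout, with 6, 1, 1, 0, 7 and 23 UMIs in the 6 libraries, and its highest level was 0.305 CPM at 6 d. All 6 of its UMIs at 0 h came from 1 cell.

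The other members had patterns of their own. Krt35, a type I hair shaft keratin, had 4, 1, 1 and 14 UMIs from 0 h to 2 d, and then 39.3 CPM (37.9 to 40.8) and 29.3 CPM (28.1 to 30.6) at 4 d and 6 d. Krt75 started at 3.80 CPM at 0 h, was at 0.956, 0.941 and 0.484 at 4 h, 16 h and 2 d, and stood at 29.5 and 26.1 CPM at 4 d and 6 d. Krt32 was highest in the resting skin, at 27.2 CPM, and was at 5.42, 12.6, 8.39, 11.2 and 11.4 CPM afterwards. In the order of the 4 d levels, from Krt28 through Krt25, Krt71, Krt35, Krt73, Krt75, Krt27 and Krt32 to Krt72, only the intervals of Krt73 (30.7 to 33.2 CPM) and Krt75 (28.3 to 30.8 CPM) overlapped. At 6 d the leading genes Krt25 (28.6 to 31.1 CPM), Krt35, Krt71 (25.7 to 28.1 CPM) and Krt75 (24.99 to 27.31 CPM) formed a run in which each interval overlapped that of the next, and so did those of Krt73 (11.2 to 12.8 CPM) and Krt32 (10.6 to 12.1 CPM). The intervals do not cover which cells were captured, so these orders are less certain than they look. The top 10 cells held 45.0% of the Krt71 UMIs at 4 d and 58.9% at 6 d.

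**Figure D1:**
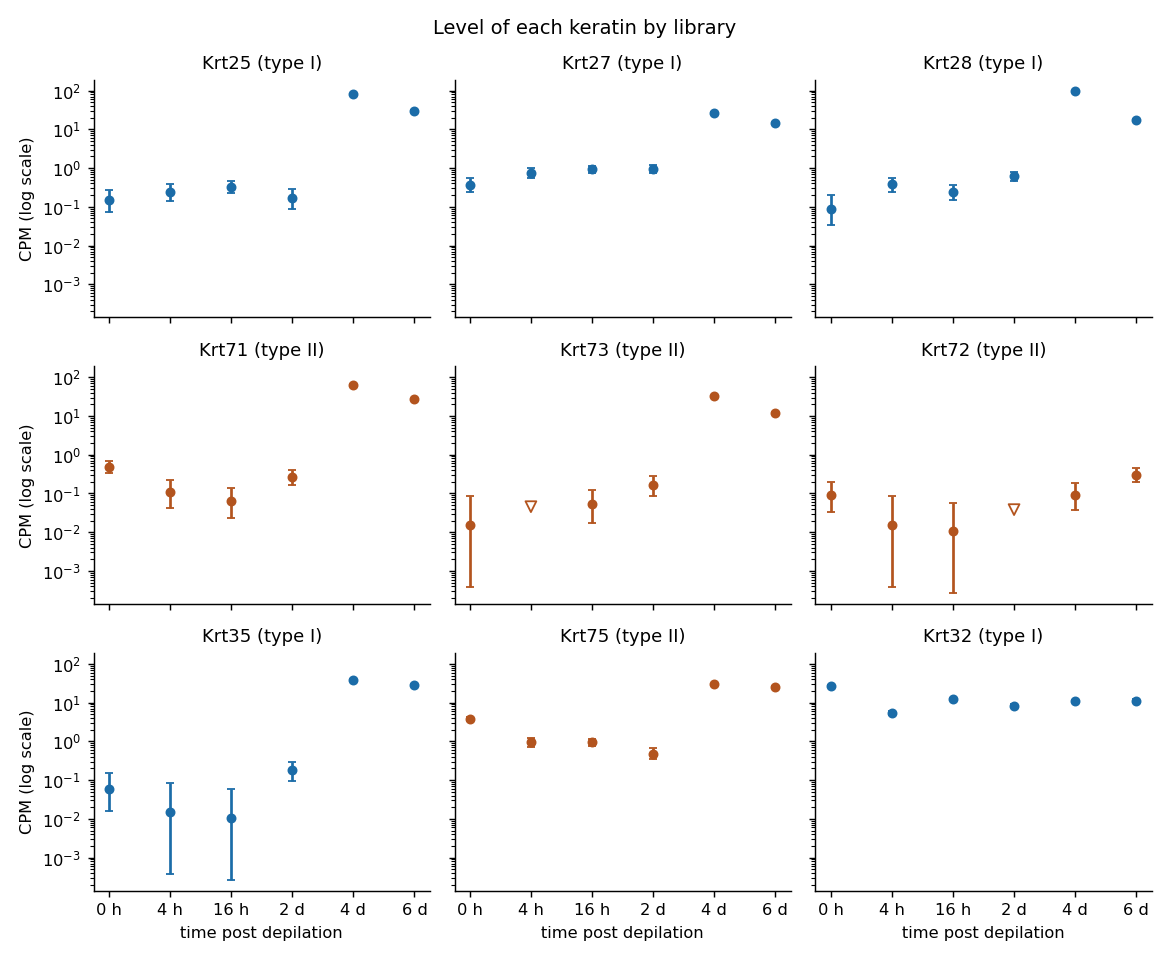
Level of each keratin in CPM (log scale) in the 6 libraries, with type I genes in blue and type II genes in orange. Bars are exact 95% Poisson intervals of 1 library, and open triangles mark libraries with 0 UMIs, drawn at the level of 3 UMIs. Krt25, Krt27, Krt28, Krt71, Krt73 and Krt35 are high at 4 d and 6 d only, Krt75 is also seen at 0 h, and Krt32 is highest at 0 h.

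Counted against all genes, most members crossed a 4-fold limit in the step from 2 d to 4 d. Of the members with at least 10 UMIs over the pair of libraries, 7 of 8 were at least 4-fold higher at 4 d than at 2 d, where 7.59% of 16881 genes were. The fold was 481 for Krt25 (281 to 905), 239 for Krt71 (156 to 386), 220 for Krt35 (131 to 404), 193 for Krt73 (112 to 362), 160 for Krt28 (121 to 217), 61.0 for Krt75 (44.3 to 86.4) and 28.5 for Krt27 (22.6 to 36.4). Krt32 was the exception at 1.33 (1.20 to 1.48). With all deposited barcodes the log2 fold of Krt25 was 7.98 in place of 8.91 and that of Krt73 6.68 in place of 7.59. The median log2 fold of the members was 7.46, beside 0.41 over all genes.

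The neighbouring steps moved fewer members. From 16 h to 2 d, 2 of 8 were at least 4-fold higher, where 2.24% of 16311 genes were. They were Krt35, with 14 UMIs after 1 (ratio 17.1, counting interval 2.60 to 722), and Krt71, with 21 UMIs after 6 (4.27, 1.67 to 12.9). Both genes reached the minimum UMI count for a fold only with the 2 d library. The count of 2 of 8 is therefore not read against the share of all genes. From 4 d to 6 d, 1 of 9 was at least 4-fold lower, where 2.56% of 17021 genes were. That gene was Krt28, which was 5.70-fold lower (5.37 to 6.05). Krt25, Krt71 and Krt73 were 2.67-fold, 2.38-fold and 2.66-fold lower at 6 d, Krt27 was 1.82-fold lower, Krt35 was 1.34-fold lower and Krt32 differed by 1.01-fold. Krt75 was 1.13-fold lower under CPM but slightly higher under TMM and DESeq2 scaling (log2 fold 0.11 and 0.08). Krt72 was 3.33-fold higher at 6 d, with 23 UMIs after 7 (counting interval 1.38 to 9.19). The median log2 fold of the members was -0.86, beside -0.30 over all genes. TMM scaling brought the shifts of all genes, 0.41 and -0.30 under CPM, to 0.01 and -0.01. These counts of members past 4-fold were the same under TMM and DESeq2 scaling, while Krt72 passed the limit as a higher gene at 6 d with TMM (log2 fold 2.02).

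Cells rich in these keratins were few. A cell was counted as rich with at least 10 UMIs, which is a range of a count and not a cell type. For the summed IRS keratins, 368 of 11032 cells were rich at 4 d (3.34%, 3.01 to 3.69) and 81 of 9062 at 6 d (0.894%, 0.711 to 1.11). In the libraries of 0 h to 2 d there were 0, 1, 1 and 0 such cells, and 0 of 6520 cells at 0 h allows a share of up to 0.0460%. That limit, here and for every count of 0, is 3 counts of the total. For Krt35, 51 cells were rich at 4 d and 33 at 6 d, and none in the earlier libraries. For Krt75, 11 cells were rich at 0 h, 51 at 4 d and 49 at 6 d. At 4 d, 17 cells held 50% of the Krt25 UMIs and 13 cells 50% of those of Krt71, while for Krt28 it took 119 cells. The IRS-rich cells were deeper than the average cell, with a median of 10657 UMIs against 6036 at 4 d.

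Shares of cells with a UMI were compared after each cell was thinned to 2000 UMIs, which left 6437, 6848, 7774, 8115, 10406 and 8863 cells of the libraries in time order. Krt28 was then found in 5.51% of cells at 4 d and 1.20% at 6 d, after 0.0155% at 0 h and 0.0986% at 2 d. Krt25 was found in 2.06% at 4 d and 0.948% at 6 d, and Krt71 in 1.80% and 1.44%. Without thinning, the 4 d shares were 8.61% for Krt28, 4.23% for Krt25 and 3.51% for Krt71. T cell-like cells, which should lack these keratins, had a UMI of Krt28 in 1.20% of 753 cells at 4 d, of Krt25 in 0.531% and of Krt71 in 0.133%, at a median depth of 2231 UMIs; thinned, 1.30%, 0.649% and 0 of 462 cells had one. At 6 d, thinned, 1.33% of 226 T cell-like cells had Krt71 (0.275 to 3.83), 0.443% Krt25 (0.0112 to 2.44) and 0 Krt28. The 6 d shares of Krt71 and Krt25 over all cells lay within these intervals. That of Krt28 lay within the Clopper-Pearson interval of its 0 of 226 cells (0 to 1.62). The 6 d shares of Krt71, Krt25 and Krt28 are therefore not told apart from this background. From 0 h to 2 d no T cell-like cell had a UMI of any IRS keratin.

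To place the keratins in cell types, cells were clustered with the 9 genes, the lists described below and cell cycle genes kept out. Clusters were named by marker lists taken from the study, which were chosen on these samples and are not independent of them, so each name is written as X-like. The IRS1-like cluster (led by Prr9 and Nkd2 among its markers) held 233 cells at 4 d, 46 at 6 d and 1 before. The IRS2-like cluster (led by Dcn and Cldn10) held 5, 8, 14, 56, 1052 and 157 cells over time, and the IRS3-like cluster (led by Penk and Serpina11) held 72, 680 and 392 cells from 2 d on. The IRS1-like cells formed a cluster of that name at the resolution of 0.4 only; at 0.2 and 0.8 the cells with these keratins lay in IRS2-like clusters. At 4 d their leading type I keratin was Krt17 (6860 CPM) and their leading type II keratin Krt79 (2580 CPM), a marker of upper HF suprabasal cells.

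The IRS keratins stood highest in the IRS1-like cells. At 4 d Krt25 reached 2420 CPM, Krt71 2054, Krt28 1664, Krt73 946 and Krt27 580, and at 6 d the values were 3544, 3195, 1425, 1428 and 919.5 CPM. The 233 IRS1-like cells of 4 d gave 71.0% of the library's IRS keratin UMIs, and the IRS2-like cells gave 20.5%. By gene, the IRS1-like cells held 89.4% of the Krt71 UMIs at 4 d, 84.5% of Krt25, 82.5% of Krt73, 60.1% of Krt27 and 47.3% of Krt28.

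IRS2-like cells held Krt28 with little of the others. Their 4 d levels were 330 CPM for Krt28, 59.1 for Krt27, 43.8 for Krt25, 12.5 for Krt73 and 7.03 for Krt71, and 52.2% of the cells had a Krt28 UMI where 4.75% had one of Krt71. At 6 d the levels in these cells were 285 CPM for Krt28, 65.6 for Krt27, 84.4 for Krt25, 1.40 for Krt73 and 7.68 for Krt71. Krt28 also led in the 56 IRS2-like cells of the 2 d library, with 16 UMIs, where Krt35 had 11 and Krt27 9, and where Krt25, Krt71 and Krt73 had 0. At this depth a count of 0 allows up to 4.88 CPM. Of the 48 Krt28 UMIs at 2 d, 33.3% lay in IRS2-like and 29.2% in OB1-like cells (outer bulge).

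At 6 d a further 26.3% of the IRS keratin UMIs lay in cells of the IFE.SB-like clusters (suprabasal cells of the interfollicular epidermis), beside 55.8% in IRS1-like and 8.37% in IRS2-like cells. By gene, these cells held 47.9% of the Krt27 UMIs of 6 d (532 UMIs, 210 of them in 1 cell) and 16.5% of those of Krt28, and IRS1-like cells held 33.4% of those of Krt27. Of the 1451 IFE.SB-like cells 15 were rich in IRS keratins, with a median depth of 19903 UMIs against 9457 for all IFE.SB-like cells. At 4 d the IFE.SB-like cells gave 3.23% from 7 rich cells. Without all IFE.SB-like cells the summed level was 316.5 CPM at 4 d and 100.8 at 6 d, and 361 and 66 cells were rich. These cells were left out of the total UMIs too, so a similar CPM does not show that they held few of the keratin UMIs. The part of depth or of mixed droplets in these cells was not tested.

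**Figure D2:**
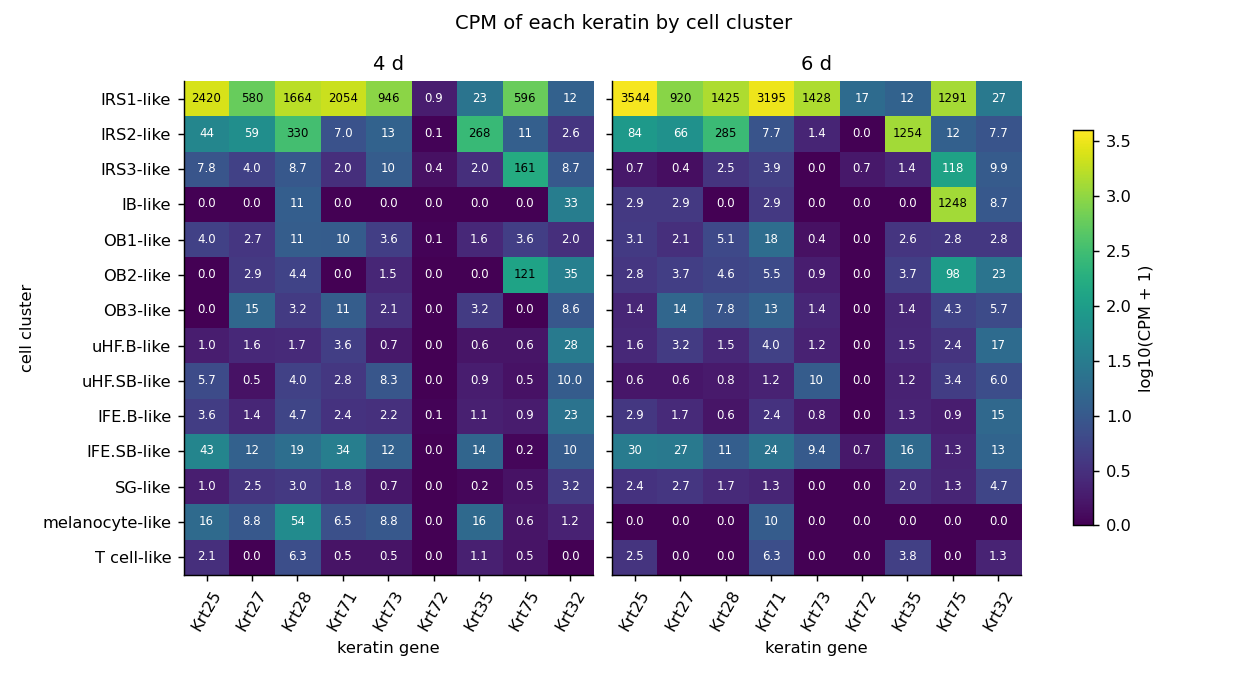
CPM of each keratin (columns) in each cell cluster (rows) at 4 d and 6 d, with the CPM printed in each field and the colour giving log10(CPM + 1). The IRS keratins are highest in IRS1-like cells, Krt28 and Krt35 are also high in IRS2-like cells, and Krt75 is spread over IRS1-like, IRS3-like, OB2-like and, at 6 d, IB-like cells.

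The mix of IRS keratins differed with their amount in a cell. IRS1-like and IRS2-like cells of the 4 d library were ordered by their summed IRS keratin UMIs. The ranges also differed in cluster make-up, with 39 IRS1-like cells of 275 at 3 to 9 UMIs, 69 of 232 at 10 to 29, 59 of 68 at 30 to 99 and 43 of 45 at 100 or more. Amount and cluster can therefore not be told apart over the whole order. Among cells with 3 to 9 UMIs (275 cells) Krt28 made up 68.5% of those UMIs, Krt25 7.62% and Krt71 2.98%. With 30 to 99 UMIs (68 cells) the shares were 44.02%, 18.1% and 19.5%. Among the 45 cells with 100 or more, Krt28 made up 14.2%, while Krt25 made up 37.5% and Krt71 28.6%. The 6 d library had the same order of mixes, with Krt28 at 63.4% among cells with 3 to 9 UMIs (41 cells) and at 10.1% among cells with 100 or more (16 cells), where Krt25 made up 36.5% and Krt71 31.9%. From 3 UMIs on, the median depth of these ranges lay between 9111 and 10978 UMIs at 4 d and between 7818 and 12394 at 6 d. At 6 d the ranges of 30 to 99 and of 100 or more held IRS1-like cells only, 16 in each. Krt28 made up 25.6% and 10.1% in these ranges, and Krt25 23.3% and 36.5%.

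Some of the 12 listed IRS proteins and regulators also differed between these ranges, and Gata3, Tchh and Padi3 are given as examples chosen after their values were seen. Gata3, a transcription factor needed for the IRS, was at 59.2 CPM in the cells without an IRS keratin UMI at 4 d, at 191 in those with 10 to 29 and at 491 in those with 100 or more. Tchh, which encodes trichohyalin, the protein that hardens the IRS, was at 1.90 to 3.35 CPM in every range below 100 UMIs and at 908 CPM above it. At 6 d Tchh was at 2.58 to 7.04 CPM below and at 3267 CPM above that limit. Padi3, which citrullinates trichohyalin, was at 72.9 CPM in the cells with 100 or more UMIs at 4 d and at or under 6.79 in all other ranges, and at 6 d at 246 CPM and at or under 27.4. Cux1, a transcription factor of the list, did not follow that order, at 763 CPM with 3 to 9 UMIs and at 676 with 100 or more at 4 d. Dsg4 and Dsc2, which encode desmosomal cadherins, had 0 UMIs in the highest range at 4 d and at most 9 in any other. Tchhl1 had 0 UMIs in every range. The counts of these genes are too low to show an order. Vdr, the vitamin D receptor of the hair matrix list, ran the other way at 4 d, from 253 CPM without IRS keratin UMIs to 42.1 with 10 to 29 and 57.9 with 100 or more. Shh, a signal from matrix cells, was at 0 UMIs in the cells without IRS keratins at 4 d, at 69.1 CPM in those with 10 to 29, at 97.7 with 30 to 99 and at 50.45 with 100 or more. At 6 d it was at 127, 21.1 and 103.5 CPM in these 3 ranges. Over whole libraries Gata3 was at 157 to 273 CPM from 0 h to 2 d, above its 4 d level of 126, so its level there did not follow the IRS keratins. Nor did that of Tchh, at 29.7 CPM at 0 h and 13.8 at 4 d, where the 45 cells of the highest range held 486 of its 1050 UMIs.

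The share of dividing cells was lower at the upper end. Cells were counted as cycling with at least 2 UMIs over 10 cell cycle genes after thinning to 2000 UMIs. At 4 d the share was 85.8% (80.6 to 90.0) with 10 to 29 IRS keratin UMIs, 76.5% (64.6 to 85.9) with 30 to 99 and 37.8% (23.8 to 53.5) with 100 or more. At 6 d it was 90.0% (73.5 to 97.9), 81.2% (54.4 to 96.0) and 4 of 16 cells (7.27% to 52.4%). Free RNA in the droplets enters such counts, and its part was not tested.

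**Figure D3:**
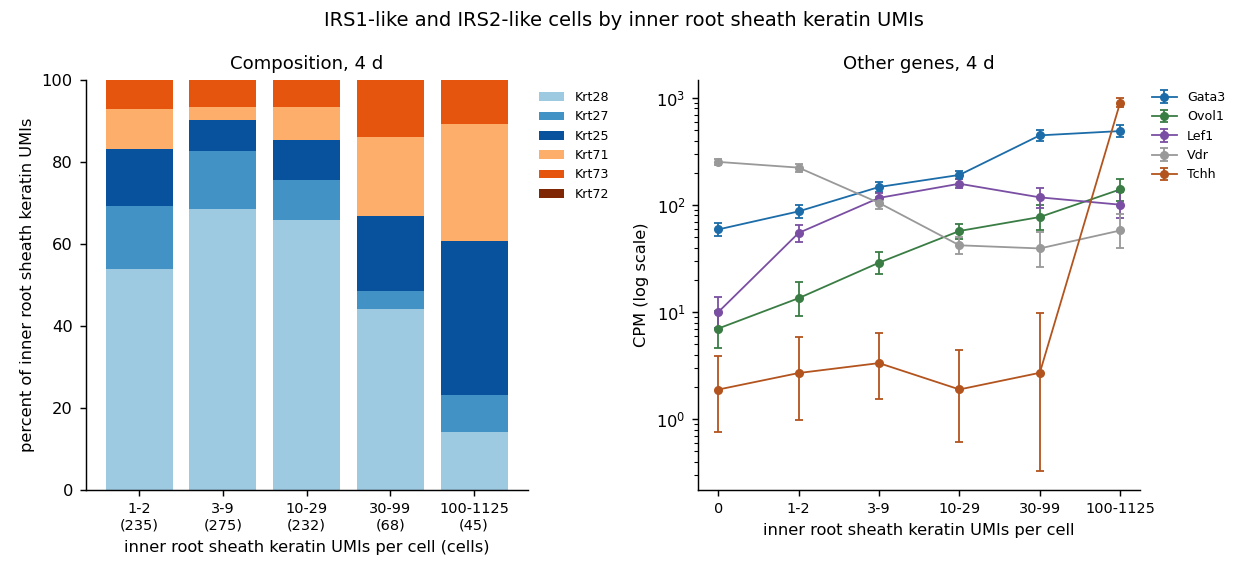
IRS1-like and IRS2-like cells of the 4 d library grouped by their summed IRS keratin UMIs, with cell numbers in brackets. Left, the percent of those UMIs from each keratin, where Krt28 goes from 68.5% at 3 to 9 UMIs to 14.2% at 100 or more. Right, CPM (log scale) of 5 other genes with exact 95% Poisson intervals, where Tchh stands at 908 CPM in the highest range.

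IRS1-like cells held IRS keratins of both types, and most IRS2-like cells those of type I alone. Over the whole library, type I keratins gave 68.1% of IRS keratin UMIs at 4 d and 61.2% at 6 d. Among IRS1-like cells rich in IRS keratins, the median type I share in a cell was 63.3% at 4 d (171 cells, quartiles 48.5 and 81.4) and 55.5% at 6 d (38 cells, quartiles 48.9 and 63.1). Among the rich IRS2-like cells the median was 100% at both times, since 157 of 174 cells at 4 d and 21 of 24 at 6 d had no UMI of Krt71, Krt72 or Krt73. Over all rich cells the type I share had a median of 94.7% at 4 d and 69.8% at 6 d. The 2 sums were correlated over rich cells with r = 0.47 at 4 d (368 cells) and 0.70 at 6 d (81 cells) on the log2(UMIs + 1) scale, a description over cells that share a library and a depth.

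The main type II keratin of IRS2-like cells was one of basal cells. Over 27 type I and 24 type II keratin genes, type II gave 19567 of the keratin UMIs of IRS2-like cells at 4 d, of which Krt5, the type II keratin of basal keratinocytes, gave 94.2%. In IRS1-like cells Krt5 gave 9.19% of type II UMIs, Krt71 29.5% and Krt73 13.6%. At 6 d Krt71 was the leading type II keratin of IRS1-like cells with 40.6%, ahead of Krt73 with 18.2% and Krt75 with 16.4%.

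**Figure D4:**
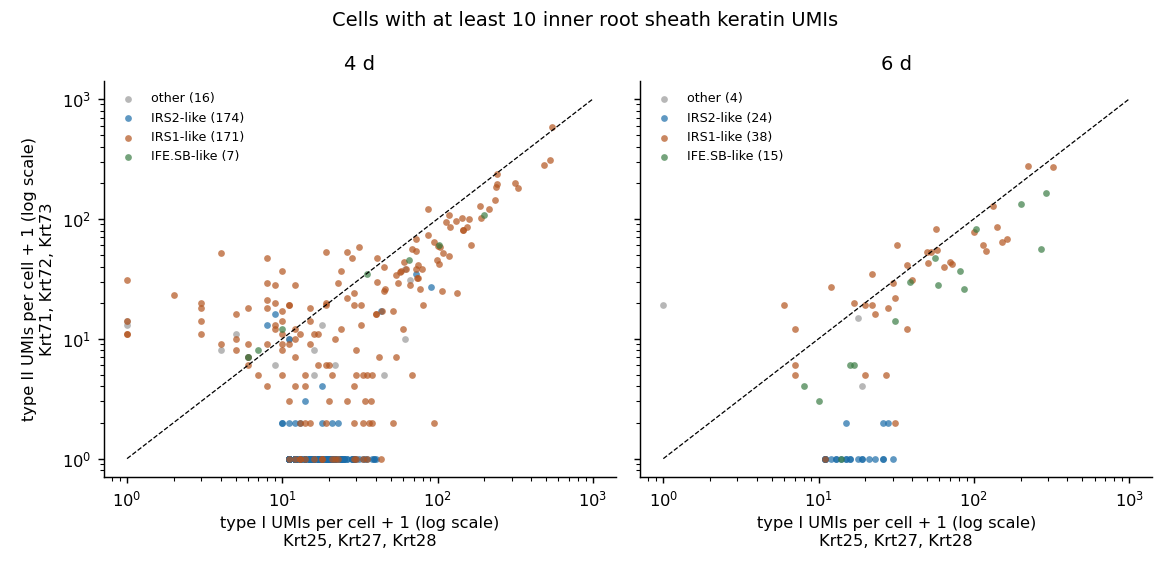
UMIs of type I (Krt25, Krt27, Krt28) against type II (Krt71, Krt72, Krt73) IRS keratins, each plus 1 on log axes, in the cells with at least 10 of them at 4 d and 6 d. Each point is a cell coloured by cluster, with cell numbers in brackets, and the dashed line marks equal sums. IRS1-like cells spread along the line, and most IRS2-like cells lie at 0 type II UMIs.

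Within single cells the IRS keratins were found together. Of the 467 cells with Krt25 at 4 d, 71.5% also had Krt28, 51.8% Krt27, 34.0% Krt71 and 31.7% Krt73, where these genes were found in 8.61%, 5.07%, 3.51% and 2.63% of all cells. Of the 290 cells with Krt73, 51.0% had Krt25 and 42.4% Krt71, and of the 387 cells with Krt71, 41.1% had Krt25. Among the 368 rich cells 79 had 5 of the 6 IRS keratins, 120 had 3 and 19 had 1. Over the 6610 HF cells of 4 d, Pearson's r between log-scaled levels was 0.71 for Krt25 and Krt71, 0.69 for Krt25 and Krt73, 0.67 for Krt25 and Krt27 and 0.45 for Krt28 and Krt71. The same pairs had r of 0.64, 0.64, 0.62 and 0.45 over the 4753 HF cells of 6 d. Krt25 and Krt75 had r of 0.11 and 0.02 at these times. At 6 d only 18.5% of the 313 cells with Krt71 also had Krt25, which was found in 2.04% of all cells.

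Krt35 was found mainly in IRS2-like cells. IRS2-like cells held 92.7% of its UMIs at 4 d (268 CPM) and 81.4% at 6 d (1254 CPM), against 23.1 and 12.4 CPM in IRS1-like cells. It was found in 11.4% of IRS2-like cells at 4 d and in 33.8% at 6 d. Their number went from 1052 to 157 between these libraries. A further 14.5% of the 6 d UMIs of Krt35 lay in IFE.SB-like cells, 4 of which were rich in Krt35 with a median depth of 32232 UMIs.

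Cells with Krt35 had Krt28 and Krt27 more often than a type II IRS keratin. At 4 d, 64.1% of the 195 cells with Krt35 had Krt28, 36.4% had Krt27, 4.62% had Krt71 and 4.10% had Krt73, where 8.61%, 5.07%, 3.51% and 2.63% of all cells had these genes. At 6 d the shares were 27.8% of 158 cells for Krt28, 20.3% for Krt27, 7.59% for Krt71 and 5.70% for Krt73, where 2.35%, 2.15%, 3.45% and 1.28% of all cells had them. Of the 51 cells rich in Krt35 at 4 d, 22 were also rich in IRS keratins (43.1% of the former, 5.98% of the latter), and at 6 d it was 5 of 33 (15.2%, and 6.17% of the 81 IRS-rich cells). In the ordering by IRS keratin UMIs at 6 d, Krt35 stood at 1168 CPM in cells without them, at 1719 with 3 to 9, at 0 with 30 to 99 and at 25.9 with 100 or more. At 4 d the order was another, with 11.9 CPM in cells without IRS keratin UMIs, 320 with 3 to 9, 144 with 30 to 99 and 284 with 100 or more.

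Krt75 was found in different cells at 0 h and at 4 d. At 0 h, 81.0% of its UMIs came from 24 IB-like cells (inner bulge, the layer that holds the resting hair), at 1140 CPM and with a UMI in 18 of them. In the IB-like cells of 4 h (117 cells), 16 h (88), 2 d (14) and 4 d (17) it stood at 27.8, 26.6, 6.60 and 0 CPM, and in the 115 such cells of 6 d at 1248 CPM. The summed level of the 10 IB markers in these cells moved too, from 17560 CPM at 0 h to 2659, 5411, 4260, 13610 and 13210 CPM. Cells unlike these markers in the cluster and less marker RNA per cell cannot be told apart here. With 17 cells at 4 d, a count of 0 allows up to 32.6 CPM.

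At 4 d Krt75 lay mainly in IRS1-like and IRS3-like cells, and at 6 d also in IB-like cells. At 4 d the first 2 types held 56.2% and 32.1% of its UMIs, at 596 CPM (563 to 630) and 161 CPM, with a UMI in 29.6% of IRS1-like and 18.2% of IRS3-like cells. At 6 d the IB-like, IRS1-like and IRS3-like cells held 43.5%, 26.5% and 17.0%, the IRS1-like at 1291 CPM and the IRS3-like, whose leading genes include the companion layer genes Pinlyp and Wfdc18, at 118 CPM. OB2-like cells (a subset of outer bulge cells) had Krt75 in every library, at 54.1, 51.2, 29.99, 51.4, 121 and 98.1 CPM, and gave 73.7% of its few UMIs at 2 d. Of the 51 Krt75-rich cells at 4 d, 13 were rich in IRS keratins and 1 in Krt35, and at 6 d these were 2 and 0 of 49. No more than 1 T cell-like cell in a library had a Krt75 UMI.

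Krt32 was found mainly in the epidermis and upper HF. At 0 h, 57.9% of its UMIs came from IFE.B-like cells (basal interfollicular epidermis, 38.6 CPM, a UMI in 25.4% of cells), 26.2% from IFE.SB-like cells (19.1 CPM) and 8.63% from uHF.B-like cells (basal upper HF, 21.2 CPM). At 4 h the same types stood at 6.05, 5.82 and 4.64 CPM, lower in all 3. uHF.B-like cells were back at 21.2 CPM at 2 d and stood at 28.2 at 4 d, while IFE.B-like cells went from 13.2 at 16 h to 7.34, 22.8 and 15.3 CPM. T cell-like cells had a UMI in 1.40% of cells at 0 h, at a median depth of 2711 UMIs.

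In most cells Krt32 was seen with few UMIs. At 0 h 1310 cells had it and 406 cells held 50% of its UMIs, with no more than 11 in a cell. IRS2-like cells stood at 2.60 CPM at 4 d and 7.68 at 6 d, and IRS1-like cells at 12.2 and 27.3 CPM, beside 22.8 and 15.3 CPM in IFE.B-like cells. All 11 Krt32 UMIs of IRS1-like cells at 6 d came from 1 cell, and another cell of that library held 81.

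**Figure D5:**
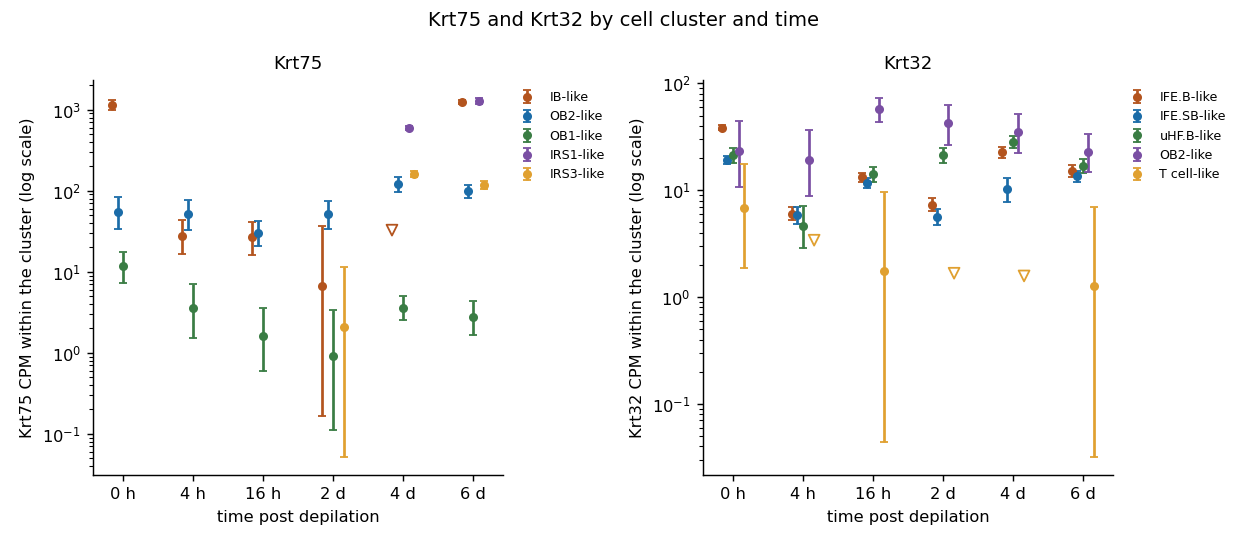
CPM within a cluster (log scale) of Krt75 (left) and Krt32 (right) over time, for clusters with at least 10 cells. Bars are exact 95% Poisson intervals of 1 library and open triangles mark 0 UMIs, drawn at the level of 3 UMIs. Krt75 is high in IB-like cells at 0 h and 6 d and in IRS1-like cells from 4 d, and Krt32 is lower at 4 h than at 0 h in the epidermal clusters.

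Some IRS keratins were also found singly outside the IRS-like cells. Krt71 had a UMI in 9.56% of the 1193 OB1-like cells at 6 d (18.1 CPM), and 107 of these 114 cells had exactly 1 UMI and 108 no other IRS keratin. At 4 d it was 6.11% of 1571 OB1-like cells, and Krt25 was found in 1.65% of the same cells. Krt73 had a UMI in 2.18% of uHF.SB-like cells at 4 d and 3.96% at 6 d (10.1 CPM), where 40 of 44 such cells had no other IRS keratin and the highest held 18 UMIs. Krt25 was found in 0.629% of the uHF.SB-like cells of 6 d. The median depth was 5082 UMIs in the OB1-like and 8166 in the uHF.SB-like cells. Of 290 T cell-like cells of 6 d, at a median depth of 2522 UMIs, 1.72% had a Krt71 UMI and 0 had Krt73, which allows up to 1.03%.

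Before 4 d, a large share of the few Krt27 UMIs lay in OB1-like cells. No marker list for the hair germ was used, so hair germ cells, which the paper found in the early libraries, are not told apart here. OB1-like cells held 32.0%, 40.8%, 44.3% and 44.6% of its 25, 49, 88 and 74 UMIs in the libraries of 0 h to 2 d. Its level in these cells was 4.43, 8.86, 10.6 and 15.2 CPM, and 2.73 CPM at 4 d. At 2 d 8.76% of them had a Krt27 UMI, at a median depth of 6722 UMIs, against 0 of 820 T cell-like cells at 2020 UMIs, which allows up to 0.366%. Melanocyte-like cells at 4 d had Krt28 at 53.5 CPM, from 91 UMIs in 11 of 274 cells, and in 0 of 65 cells at 6 d. The part of free RNA and of mixed droplets in these values was not tested.

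Further keratins of the same families stayed at or below 1.01 CPM in every library. Of 15 other IRS and hair keratins 14 had a row, and the highest at 4 d were Krt83 (0.891 CPM), Krt86 (0.865), Krt33a (0.524) and Krt87 (0.288). Krt26, Krt33a, Krt36, Krt86 and Krt87 had 1, 8, 4, 8 and 4 UMIs at 2 d and 9, 40, 18, 66 and 22 at 4 d. These genes reached the minimum of 10 UMIs only with the 4 d library, so no count of changed genes is read from this list. Of 57 keratin-associated protein genes, which cross-link hair keratins, 8 had any UMI at 4 d and 20 at 6 d. Krtap17-1 was the highest at 4 d (3.32 CPM), after 2.16, 2.60, 2.06 and 0.803 CPM from 0 h to 2 d. Krtap3-2 stood at 104 CPM in resting skin and at 0.708 and 37.1 CPM in the libraries of 4 d and 6 d.

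Most regulators of the hair matrix were also higher at 4 d. Of 10 such genes, 6 were at least 4-fold higher at 4 d than at 2 d, where 7.59% of all genes were. Their median log2 fold over the 10 was 2.98, beside 0.41 over all genes. At 6 d 1 of the 10, Msx2, was at least 4-fold lower than at 4 d, where 2.56% of all genes were. Hoxc13 was at 4.19, 38.7 and 15.0 CPM at 2 d, 4 d and 6 d, and Vdr, also high before, at 59.1, 122 and 103. Lef1 was at 1.17, 17.4 and 5.72 CPM and Trps1 at 14.55, 22.53 and 16.05. Bmp4 was not among the higher ones, at 28.1, 23.2 and 16.1 CPM after 31.4 at 0 h. Of the 12 IRS proteins and regulators, Padi1, Padi3 and Dsg4 had 2, 0 and 1 UMIs at 2 d and 13, 72 and 12 at 4 d, and they too reached the minimum only with the 4 d library. Cux1 was at 49.5, 143 and 49.2 CPM. Gata3 was at 205, 126 and 189 CPM, Ovol1 at 57.8, 54.9 and 56.8, Casp14 at 31.9, 25.5 and 118, and Tchh at 18.2, 13.8 and 34.5. Of 7 companion layer genes, 2 were at least 4-fold higher at 4 d than at 2 d, Gjb2 and Wfdc18, and 2 at least 4-fold lower, Krt6b and Krt16, where 7.59% and 1.39% of all genes were. Wfdc18 was at 0.179, 9.16 and 11.1 CPM at 2 d, 4 d and 6 d and Krt6b at 14.7, 0.0917 and 9.72. Krt17 stood at 1177, 3991 and 3484 CPM, Krt16 at 529, 85.7 and 695, Gjb2 at 7.76, 57.7 and 33.3, Krt6a at 104, 41.0 and 124, and Pinlyp at 15.0, 40.4 and 105. Krt6b, Krt16 and Krt6a were highest at 4 h, at 435, 2983 and 1329 CPM. They stood at 61.0, 823 and 359 CPM at 16 h, so their fall had begun before 2 d.

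The genes most like the IRS keratins over the 6610 HF cells of 4 d were Nrp2 (r = 0.56), Paqr5 (0.50), Cldn10 (0.45), Mt4 (0.45), Dcn (0.45), Fabp5 (0.44), Bach2 (0.42) and Arg2 (0.42). In the 4753 HF cells of 6 d, which did not choose them, r was 0.46 for Nrp2, 0.34 for Dcn, 0.30 for Cldn10, 0.27 for Paqr5, 0.24 for Mt4, 0.22 for Bach2, 0.18 for Fabp5 and 0.14 for Arg2. For the summed Krt35 and Krt32 the genes were Gm49425 (0.67 and 0.74 at 6 d), Mt4 (0.44 and 0.47), Cldn10 (0.37 and 0.40), S100a3 (0.35 and 0.39), Odc1 (0.29 and 0.20), Wnt10b (0.27), Bambi (0.26 and 0.20) and 1700097N02Rik (0.25 and 0.12). For Krt75 they were Tm4sf1 (0.37 and 0.32), Nectin3 (0.34 and 0.20), Fzd5 (0.32 and 0.15), Serpina11 (0.31 and 0.23), Wnt11 (0.30 and 0.09), Foxe1 (0.30 and 0.14), Heyl (0.29) and Nhs (0.29 and 0.13). Dcn, Mt4, Cldn10 and Fabp5 are markers that name the IRS2-like cluster, Nectin3 one of IRS1 and Serpina11 one of IRS3. Wnt10b and Heyl were in under 1% of the HF cells of 6 d and have no second value. These values describe cells that share a library and depth.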

How the data were processed

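Reads were aligned and counted by the authors with Cell Ranger 6.1.2 against mm10, per the labels and the submitters' processing notes. The authors deposited matrices of raw UMI counts per gene and cell barcode, without normalization. The annotation is not given in the sources used here. The 10 genes and all gene lists were chosen with earlier results of these data known.

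Cells with 500 to 7000 detected genes and at most 10% mitochondrial UMIs were kept, and the highest Scrublet scores (scanpy 1.11.5) were removed as likely doublets at 0.8% per 1000 barcodes of a library (405 to 1378 barcodes). Libraries were integrated with Seurat 5.3.0 (reciprocal principal components, 2000 variable genes, 30 components) and clustered at a resolution of 0.2, and HF cells again at 0.4, without 109 listed and 1046 cell cycle or correlated genes. A cluster was named after the marker list whose genes had the highest average log2 fold over the other cells. With 1 library per time point no test was run. Folds were computed for genes with at least 10 UMIs over both libraries, with a sum of 0 set to 3 UMIs. edgeR 4.0.16 (TMM) and DESeq2 1.42.0 gave alternative scalings only. The fold count and thinning were tested on simulated counts.

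The named genes are all members, up to 5 genes of a list with the highest level at 4 d, and the 8 genes most correlated with a member sum among genes in at least 1% of HF cells (log of 1 plus UMIs per 10000). Other genes named were chosen after their values were seen.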

Additional observations from a re-analysis of the deposited data

How the results depend on the processing

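With 1 library per time point, the values carry counting error only, and differences between mice are not seen. No paired analysis was possible because the result comes from no test and the labels give no replicate numbers. The limits chosen set several values. With a fold limit of 2, 4 members were higher at 2 d than at 16 h and 4 lower at 6 d than at 4 d, and with a limit of 8 these were 1 and 0. At least 5 UMIs in place of 10 gave IRS-rich shares of 4.90% at 4 d and 1.31% at 6 d, a hair keratin share of 0.770% at 4 d and Krt75 shares of 0.870% and 1.02%. At least 20 UMIs gave 1.71%, 0.607%, 0.308%, 0.254% and 0.210%. Where detection took 3 UMIs, cells with Krt71 had Krt25 in 68.3% of cases at 4 d and 82.6% at 6 d, in place of 41.1% and 18.5%. Cells with Krt35 then had Krt28 in 36.5% at 6 d. After thinning to 2000 UMIs, 28.1% of Krt71 cells had Krt25 at 6 d and 52.8% of Krt35 cells had Krt28 at 4 d. The other 39 main values under an alternative moved by less than their interval or 1.5 times, among them those under TMM, DESeq2 size factors, kept doublets, all deposited barcodes and the resolutions of 0.2 and 0.8. The rich cells without IFE.SB-like cells were an alternative added after the data were seen. Of the other values, mostly levels and shares of single members, 208 stayed within their interval or, for folds, on the same side of the 4-fold limit, 109 moved by more and 1 passed the limit (Krt72 at 6 d against 4 d, log2 fold 2.02 with TMM). Folds on the same side could still leave their interval, as Krt28 at 6 d against 4 d did (-2.23 with TMM, -2.51 under CPM) and Krt25 with all deposited barcodes (-0.90 in place of -1.42, and 7.98 in place of 8.91 at 4 d against 2 d). No fold past the limit changed sign, but folds near 0 did, namely Krt75 at 6 d against 4 d (-0.18, and 0.11 with TMM and 0.08 with DESeq2) and Krt27 at 2 d against 16 h (0.04, and -0.05 with all deposited barcodes). Depth limits the members under the 3-UMI level before 4 d.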
